A study of Mus musculus with 12 samples.

Results

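White fat cells store energy as triglyceride in a single large lipid droplet and secrete hormones into the blood. Leptin, made from Lep, reports the size of the fat store to the brain, and its gene is a known target of hypoxia signalling in cultured fat cells. Adiponectin (Adipoq), resistin (Retn in the mouse) and the complement protease adipsin (Cfd) are other fat cell secretions. The remaining genes described here work inside the cell or at the vessel wall: Pparg encodes the nuclear receptor that drives fat cell formation, Fabp4 a fatty acid carrier, Plin1 and Cidec coat proteins of the lipid droplet, Lipe a hormone-sensitive lipase, and Lpl the lipase that releases fatty acids from circulating lipoproteins. These 10 genes, Lep, Adipoq, Retn, Cfd, Pparg, Fabp4, Plin1, Cidec, Lipe and Lpl, were taken by name from a table of 35434 mouse genes. All 10 were among the 15269 genes with enough reads to test. Mammary and subcutaneous tumours can carry adjacent fat tissue, so each library is given by its own value.

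The libraries came from 12 tumours of the 4T1 line, a mouse mammary carcinoma line, grown under the skin after injection on the back of female BALB/c mice aged 6 to 8 weeks, with 1 tumour from 1 mouse per library and 3 mice per group. HI mice were kept in a hypobaric chamber at a simulated 3500 m and received IOX2, an inhibitor of the HIF prolyl hydroxylases, at 10 mg/kg into the peritoneum. HC mice were kept in the chamber at 3500 m with vehicle, MI mice were kept at the local altitude of about 1500 m with IOX2, and MC mice were kept at about 1500 m with vehicle. Injections ran for 10 days from day 9 after inoculation, and tumours were collected on study day 22. Housing in the chamber and low pressure cannot be told apart. Every group carried the same transplanted line, and the host's own skin, fat, vessels and immune cells were present in all of them. Libraries are named by group and replicate number (HC1 is replicate 1 of HC).

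Totals ranged from 31661685 read counts in HC1 to 40019343 in MI2, so that 3 counts corresponded to between 0.0728 and 0.0917 CPM (counts scaled to 1000000 per library). CPM values below were also scaled by the TMM method, which corrects for differences in library composition. Log2 changes and p-values came from edgeR's quasi-likelihood test over all 12 libraries, with Benjamini-Hochberg adjustment over all 15269 genes. The test gives no standard error (SE), so SE was worked back from it. It is the size of the log2 change divided by the square root of the F statistic. A gene was called at an adjusted p under 0.05. Epithelial markers of the tumour, such as Krt8, Krt18, Epcam and Cdh1, were abundant in every library. The 12 of them summed to 4429.6 to 4860.3 CPM in HI, 4651 to 5119 CPM in HC, 3929 to 4422 CPM in MI and 4454 to 4791 CPM in MC.

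The stretches of 250 bases upstream of the start of Lep, Retn and Adipoq are shown. All 3 are made by fat cells, and the mean ratios of Lep and Retn to Adipoq differed between chamber and ambient tumours. The Lep ratio overlapped between them, and the Retn ratio was given no test. Any part of these stretches in the ratios was not tested. The stretches come from RefSeq on GRCm38.p6, an earlier build than the one used for the counts (GRCm39 per the submitters' processing notes). Lep is on chr6:29059971-29060220, Retn on chr8:3655520-3655769 and Adipoq on chr16:23146286-23146535, all on the plus strand. The sequences end at the base before the annotated start, and capitals mark matches to TTGCGCAA (a palindromic C/EBP motif), TATAA and CCAAT on either strand.
Lep: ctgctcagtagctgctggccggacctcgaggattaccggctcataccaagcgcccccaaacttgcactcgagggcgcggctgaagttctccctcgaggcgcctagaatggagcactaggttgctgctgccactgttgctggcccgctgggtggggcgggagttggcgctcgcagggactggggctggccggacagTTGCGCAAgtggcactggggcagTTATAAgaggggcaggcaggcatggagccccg
Retn: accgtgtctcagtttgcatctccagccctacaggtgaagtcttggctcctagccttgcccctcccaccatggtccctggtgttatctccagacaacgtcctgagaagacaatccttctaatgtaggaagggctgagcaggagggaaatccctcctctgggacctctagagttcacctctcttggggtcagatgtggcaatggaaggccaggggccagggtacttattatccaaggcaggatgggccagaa
Adipoq: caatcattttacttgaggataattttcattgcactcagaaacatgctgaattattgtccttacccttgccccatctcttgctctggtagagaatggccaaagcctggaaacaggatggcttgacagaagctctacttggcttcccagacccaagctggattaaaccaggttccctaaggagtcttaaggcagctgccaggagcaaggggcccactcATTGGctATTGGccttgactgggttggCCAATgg
The Lep stretch held TTGCGCAA 55 to 48 bases before the start, a match found in 0.164% of 32851 promoters of the same length. It also held overlapping TATAA matches on the 2 strands between 32 and 27 bases before the start. At least 1 TATAA match anywhere in the 250 bases was found in 22.8% of promoters. The Adipoq stretch held 3 matches to CCAAT or its complement, at 34 to 30, 27 to 23 and 7 to 3 bases before the start. At least 1 such match was found in 33.8% of promoters. Retn held no match to these 3 motifs. The hypoxia response cores ACGTG (16.6% of promoters) and GCGTG (28.2%) were not matched in any of the 3 stretches shown, and were found on either strand in 1 of 2 listed promoters of Lipe, 1 of 3 of Pparg and 1 of 2 of Cidec for GCGTG, and in 1 of 2 of Lipe for ACGTG. The table held promoters for 8 of the 10 genes, and Fabp4 and Lpl were not among them.

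Fat cell genes were most abundant in tumours from the chamber, but unevenly so. The 10 genes summed to 249, 397 and 79.9 CPM in the HI tumours, 684, 479 and 103 CPM in the HC tumours, 232, 123 and 126 CPM in the MI tumours, and 113, 78.1 and 106 CPM in the MC tumours, in replicate order. HC1, HC2, HI1 and HI2 held the 4 highest sums, and HC3 and HI3 lay within the MC range. In each chamber group the highest library had 4.96 (HI) and 6.61 (HC) times the lowest, against 1.89 times in MI and 1.44 times in MC. In bulk RNA a library with more fat cells cannot be told apart from one with more of these transcripts per fat cell.

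**Figure D1:**
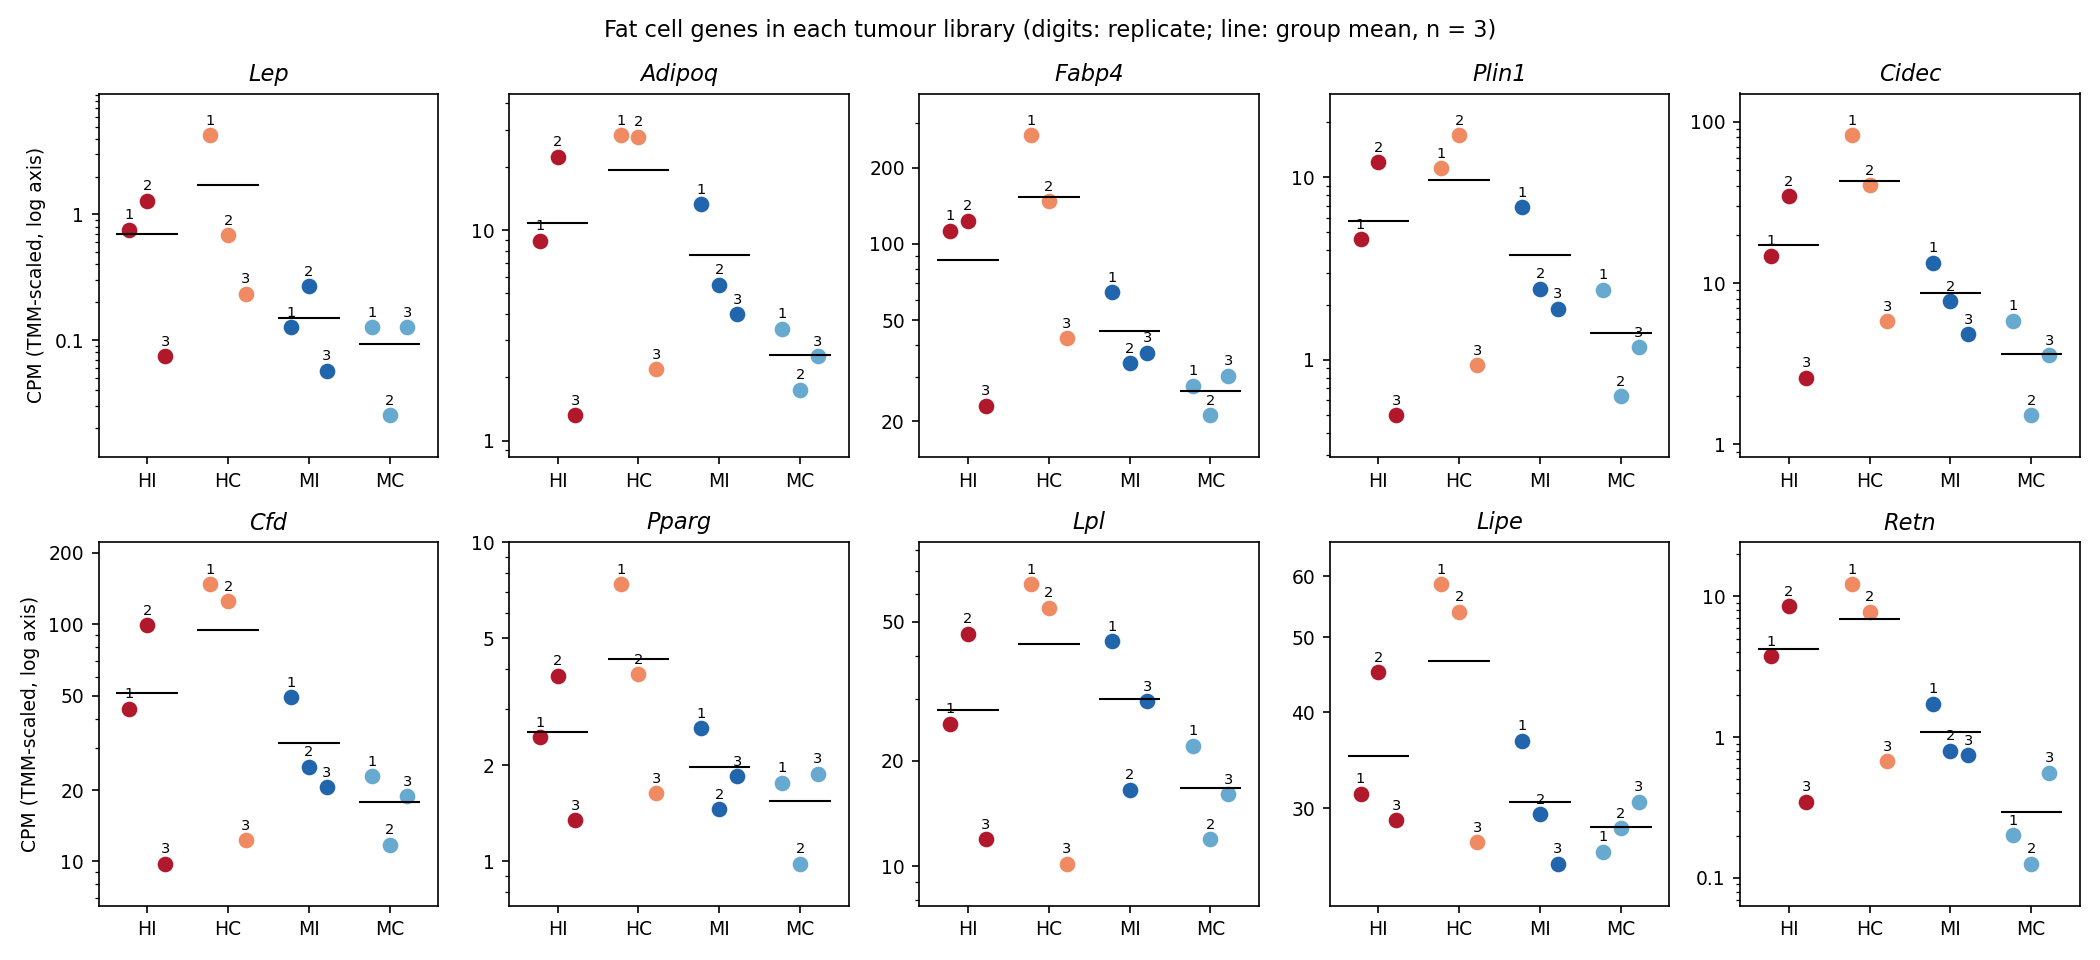
Level of each of the 10 fat cell genes in each tumour, in TMM-scaled CPM on a log axis with a range of its own per panel; points are libraries numbered by replicate, lines are arithmetic group means (n = 3). Replicates 1 and 2 of HC stand high for every gene, while HC3 and HI3 lie near the MC tumours for most genes.

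Among the secreted products, Lep had 29, 52 and 3 counts in HI1, HI2 and HI3, 139, 27 and 9 counts in HC1, HC2 and HC3, 5, 11 and 2 counts in MI1, MI2 and MI3, and 5, 1 and 5 counts in MC1, MC2 and MC3. In CPM these were 0.757, 1.28 and 0.0747 in HI, 4.25, 0.685 and 0.234 in HC, 0.127, 0.267 and 0.0570 in MI, and 0.126, 0.0252 and 0.127 in MC. Every HC tumour exceeded every MC tumour, HC1 stood far above all others, and HI3 lay inside the range of MI. The MC2 count allowed a level from 0.000639 to 0.141 CPM and the HI3 count one from 0.0154 to 0.218 CPM (95% exact Poisson intervals, which cover counting error only). Lep passed the filter on low counts mainly through chamber libraries: 4 of the 5 libraries with 10 or more counts were HC or HI.

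Adipoq, a hormone made almost only by fat cells, was at 8.93, 22.4 and 1.32 CPM in HI, 28.2, 27.8 and 2.18 CPM in HC, 13.3, 5.51 and 3.99 CPM in MI, and 3.40, 1.74 and 2.52 CPM in MC. HC1 and HC2 were nearly equal for Adipoq although their Lep levels differed, HC3 lay inside the MC range and HI3 below it. All MI tumours were above all MC tumours. Retn was at 3.76, 8.51 and 0.349 CPM in HI, 12.2, 7.76 and 0.675 CPM in HC, 1.73, 0.801 and 0.741 CPM in MI, and 0.201, 0.126 and 0.560 CPM in MC. For Retn every HC and every MI tumour lay above every MC tumour. Cfd was more abundant, at 9.78 to 99.3 CPM in HI, 12.3 to 148 CPM in HC, 20.6 to 49.2 CPM in MI and 11.8 to 22.9 CPM in MC, and its groups overlapped in every comparison.

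Of the genes that act inside fat cells, Fabp4 was at 113, 123 and 23.1 CPM in HI, 268, 147 and 42.5 CPM in HC, 64.6, 33.9 and 37.3 CPM in MI, and 27.6, 21.1 and 30.3 CPM in MC. The HC and MI tumours all exceeded the MC tumours, and HI3 lay within the MC range. Fabp4 is also made by capillary endothelium and macrophages, so its level is not specific to fat cells. Cidec was at 14.8, 34.5 and 2.59 CPM in HI, 82.3, 40.5 and 5.82 CPM in HC, 13.4, 7.74 and 4.82 CPM in MI, and 5.84, 1.51 and 3.56 CPM in MC, with HC3 just under the highest MC tumour. Plin1, the other droplet protein, ranged from 0.498 to 12.1 CPM in HI, 0.935 to 17.0 CPM in HC, 1.91 to 6.84 CPM in MI and 0.631 to 2.42 CPM in MC, and it alone among the 10 was higher in HC2 than in HC1.

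Pparg had a narrower range, with 1.34 to 3.82 CPM in HI, 1.64 to 7.40 CPM in HC, 1.46 to 2.62 CPM in MI and 0.984 to 1.88 CPM in MC. Lpl was at 11.9 to 46.2 CPM in HI, 10.2 to 64.1 CPM in HC, 16.6 to 44.0 CPM in MI and 11.9 to 22.1 CPM in MC, and muscle and macrophages also make it. Lipe had the flattest profile of the 10: 31.3, 45.0 and 29.0 CPM in HI, 58.6, 54.0 and 27.1 CPM in HC, 36.7, 29.5 and 25.4 CPM in MI, and 26.4, 28.3 and 30.6 CPM in MC. Its highest library over its lowest was 2.31, against 168 for Lep, 96.9 for Retn and 21.4 for Adipoq. In order of group means, HC came before HI, HI before MI and MI before MC for 9 of the 10 genes, and for Lpl MI came before HI. Neighbouring groups in that order overlapped for every gene, except MI and MC for Adipoq, Fabp4 and Retn.

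Between genes, levels can be compared only per length, for which the deposited FPKM values serve. In every library Fabp4 had the highest FPKM of the 10, Cfd came next and Lep was last. In HC1, Fabp4 was at 319.7 FPKM, Cfd at 166 FPKM, Adipoq at 23.6 FPKM, Retn at 9.82 FPKM and Lep at 1.35 FPKM. In MC2 the same genes were at 24.5, 12.8, 1.41, 0.0981 and 0.00776 FPKM. The next place per length was held by Cidec in HI1, HI2, HC1 and HC2, by Lipe in HI3, HC3, MI2 and all MC tumours, and by Lpl in MI1 and MI3.

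The chamber was first compared with ambient altitude under vehicle, without IOX2 in either group. This comparison takes chamber housing and low pressure together. Averaged over mice, Lep was at 1.72 ± 2.20 CPM in HC and 0.0928 ± 0.0585 CPM in MC, Adipoq at 19.4 ± 14.9 CPM in HC and 2.55 ± 0.83 CPM in MC, and Retn at 6.89 ± 5.83 CPM in HC and 0.296 ± 0.232 CPM in MC (SD, n = 3 each). All 10 genes had a positive log2 change, with a median of 2.66 against -0.01 over all genes tested. The changes were 4.53 for Retn (SE 1.19), 4.16 for Lep (SE 1.218), 3.56 for Cidec (SE 1.00), 2.92 for Adipoq (SE 0.99) and 2.53 for Fabp4 (SE 0.66). Those of the other genes were 2.78 for Plin1, 2.41 for Cfd, 1.47 for Pparg, 1.37 for Lpl and 0.71 for Lipe.

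None of the 10 passed in HC against MC by edgeR's quasi-likelihood test, where adjusted p-values ran from 0.235 (Fabp4 and Retn) to 0.419 (Lpl), and 9 of 10 had an unadjusted p under 0.05. The background was 0% of all genes called and 1829 genes (12%) with an unadjusted p under 0.05. The 9 depended on the method. By limma-voom 2 of 10 had an unadjusted p under 0.05, against 1718 of 15269 genes. By limma on log2 FPKM it was 6 with 0.1 added and 5 with 1 added, against 1607 and 1560 genes. DESeq2's Wald test called Retn (adjusted p = 0.00981), Lep (0.0194), Fabp4 (0.0274) and Cidec (0.0285), 4 of 10 against 2.06% of all genes. An edgeR fit with the replicate number as a block was used because same-numbered HC and MC libraries deviated together. The block covered all 12 libraries, also those of MI and HI. In that fit 0 of the 10 passed, against 0.0851% of all genes, with Fabp4 at adjusted p = 0.162 and 2.16 on the log2 scale. Lep, Fabp4 and Retn, 3 of 10, had every HC tumour above every MC tumour, as did 10.3% of all genes.

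Under IOX2 the same comparison, HI against MI, gave smaller changes: a median of 0.65 against -0.01 over all genes, with 9 of 10 positive. Lep averaged 0.705 ± 0.606 CPM in HI and 0.150 ± 0.107 CPM in MI, a log2 change of 2.18 (SE 1.14), and Retn averaged 4.21 ± 4.10 CPM in HI and 1.09 ± 0.55 CPM in MI, a change of 1.94 (SE 1.04). Adipoq changed by 0.52 (SE 0.92), Plin1 by 0.62 (SE 1.02) and Lpl by -0.11 (SE 0.61), all within 1 SE of 0. By edgeR's quasi-likelihood test 0 of 10 passed, against 0% of all genes, the smallest adjusted p was 0.371 (Lep), and no gene of the 10 had an unadjusted p under 0.05, against 15.2% of all genes. DESeq2 called 0 of 10, against 2.5% of all genes. All 10 genes overlapped between HI and MI, where 8.02% of all genes had every HI above every MI tumour. Without HI2, the log2 changes in HI against MI of Adipoq, Plin1, Cfd, Pparg and Lipe turned negative, to -0.57, -0.56, -0.23, -0.06 and -0.02.

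**Figure D2:**
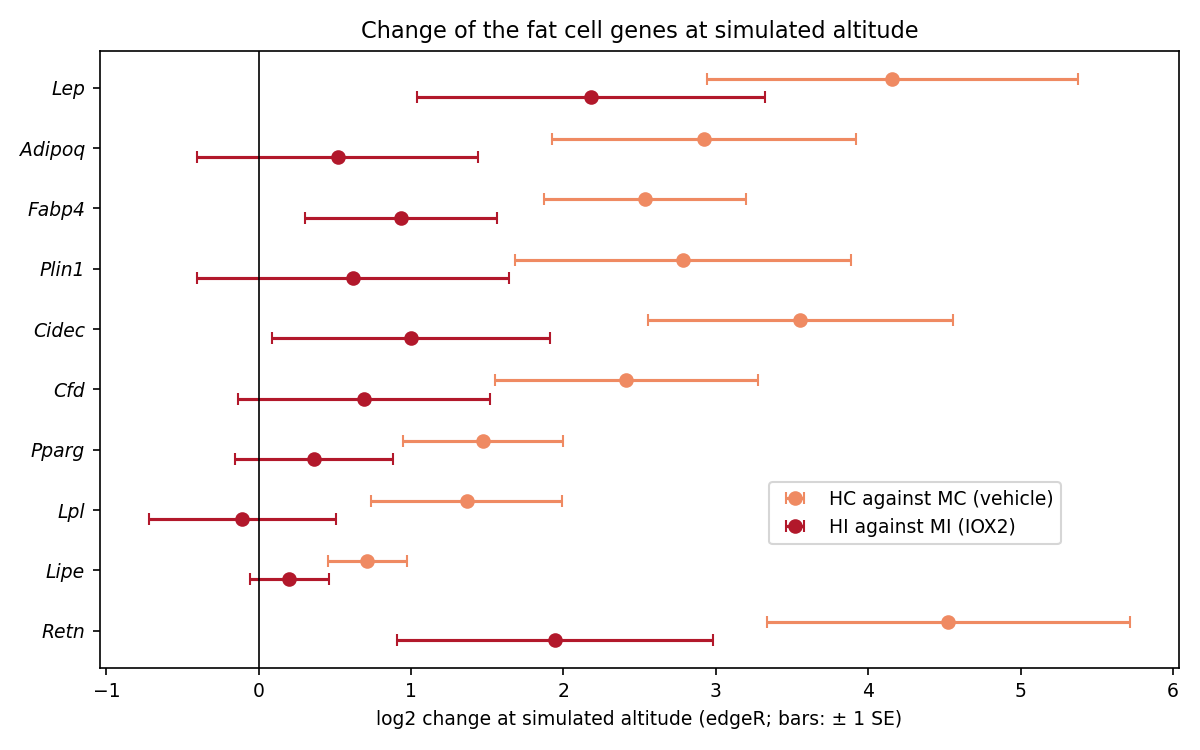
Log2 change of each of the 10 genes at simulated altitude, for HC against MC and for HI against MI, from edgeR's fit over 12 libraries; bars are ± 1 SE. Lep and Retn have the 2 highest values in both comparisons, and every value for HC against MC is to the right of that for HI against MI.

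Averaged over treatment, the chamber groups HC and HI against the ambient groups MC and MI gave a median log2 change of 1.71 over the 10 genes and -0.02 over all genes. Retn changed by 3.23 (SE 0.79, adjusted p = 0.0874), Lep by 3.17 (SE 0.83, adjusted p = 0.103), Fabp4 by 1.73 (SE 0.46, adjusted p = 0.103) and Cidec by 2.28 (SE 0.67, adjusted p = 0.133) in edgeR's quasi-likelihood test. Again 0 of 10 passed, against 0.498% of all genes, and 9 of 10 had an unadjusted p under 0.05, against 17.3% of all genes. By limma-voom 2 of 10 had an unadjusted p under 0.05, against 2424 of 15269 genes, and the median change was 1.06. By limma on log2 FPKM it was 4 with 0.1 added and 3 with 1 added, against 2316 and 2269 genes. DESeq2's Wald test called the same 4 genes as in HC against MC, Lep, Retn, Fabp4 and Cidec, against 5.67% of all genes. A single tumour decided part of this: without HI3, edgeR called Retn (adjusted p = 0.0331), Fabp4 (0.0340) and Lep (0.0464), 3 of 10 against 2.17% of all genes. With no filter on low counts it called Retn alone (adjusted p = 0.0428), 1 of 10 against 0.683% of all genes. Of the 5 skin and hair genes tested, 4 were higher and 3 of these had an unadjusted p under 0.05 (Krt1 at 4.88, Dmkn at 2.28 and Sbsn at 0.42 on the log2 scale), and 0 passed. Their part in the fat cell changes was not tested.

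IOX2 was compared with vehicle at each altitude. At ambient altitude, MI against MC, all 10 genes had positive log2 changes (median 0.84, against 0.01 over all genes), led by Retn at 1.87 (SE 1.17), Adipoq at 1.57 (SE 0.97) and Plin1 at 1.41 (SE 1.07). By edgeR 0 of 10 passed, against 0.0262% of all genes, 0 of 10 had an unadjusted p under 0.05, against 9.39%, and DESeq2 called 0 of 10, against 0.131%. The 15 skeletal muscle genes were also higher in this comparison, 14 of 15 with a median of 1.02 and 0 passing, and their part in the fat cell values was not tested. Adipoq, Fabp4 and Retn did not overlap between MI and MC, 3 of 10, where 4.75% of all genes had every MI above every MC tumour and 6.32% every MI below. In the chamber, HI against HC, all 10 genes had negative log2 changes (median -0.79, against 0.00 over all genes), from -1.31 for Cidec to -0.41 for Lipe. All 10 overlapped between HI and HC, where 5.61% of all genes had every HI below every HC tumour. By edgeR 0 of 10 passed in this comparison, against 0% of all genes, 0 of 10 had an unadjusted p under 0.05, against 4.85%, and DESeq2 called 0 of 10, against 0.144%. Muscle genes were lower for 13 of 15 (median -0.28) and endothelial genes for 12 of 12 (median -0.44), with 0 passing. Without HC1 the Lep change in HI against HC was 0.61 in place of -1.28.

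The opposite signs of the IOX2 comparisons were tested directly as the interaction of altitude and IOX2. Its log2 values were negative for all 10 genes, from -0.51 for Lipe to -2.58 for Retn, with SE from 0.37 to 1.66 and a median of -1.85 against -0.02 over all genes. In edgeR's test adjusted p-values lay between 0.605 and 0.693, 0 of 10 passed against 0% of all genes, and 0 of 10 had an unadjusted p under 0.05, against 8.21%. Markers of other tissues had the same sign: all 15 skeletal muscle genes were negative (median -1.14, no unadjusted p under 0.05), as were all 12 endothelial genes (median -0.66, 8 with an unadjusted p under 0.05), and 0 passed. Their part in the fat cell values was not tested. The comparisons share groups, so their signs are not independent. Averaged over altitude, IOX2 gave a median of -0.02 with 4 of 10 genes positive, 0 of 10 passing and 0.0393% of all genes called, and the highest in size was Retn at 0.58 (SE 0.75, adjusted p = 0.864). In that average 0 of 10 had an unadjusted p under 0.05, against 5.12% of all genes. DESeq2 called 0 of 10 in the interaction, against 0.21% of all genes, and 0 of 10 in the IOX2 average, against 0.072%.

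To compare leptin between tumours that differed in all fat cell transcripts, it was set against adiponectin inside each library. There were 8.48, 5.74 and 5.66 Lep counts per 100 Adipoq counts in HI, 15.1, 2.46 and 10.7 in HC, 0.960, 4.85 and 1.43 in MI, and 3.70, 1.45 and 5.05 in MC. All 3 HI tumours and 2 of the 3 HC tumours lay above every ambient tumour, and HC2 lay among them. On the log2 scale the ratio averaged -3.80 ± 0.90 in the 6 chamber tumours and -5.17 ± 0.95 in the 6 ambient tumours (SD), a difference of 1.37. The exact two-sided permutation test over 924 arrangements gave p = 0.0281, where the smallest possible value is 0.00216. The ratio and its test were chosen with earlier results of these tumours known, which this p does not take into account. The difference was 1.70 for HI against MI and 1.05 for HC against MC, where 3 against 3 cannot reach a p under 0.1.

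This result was close to its threshold. The exact permutation p was 0.0606 without HC1 or without MI1, 0.0563 without HC3, MI3 or MC2, and 0.00866 without HC2. With Plin1 in place of Adipoq the difference was 1.42 (p = 0.0455, exact permutation), and with Fabp4 in place of it 1.06 (p = 0.0584, exact permutation). The count behind the ratio was small in several tumours: Lep made up 5.36% of Lep and Adipoq counts together in HI3 (95% exact binomial interval 1.12% to 14.9%), 1.43% in MC2 (0.0362% to 7.70%) and 13.1% in HC1 (11.1% to 15.3%). HC1 and HC2 had almost the same Adipoq level, and Lep made up 2.40% in HC2 (1.59% to 3.48%). These intervals cover counting error only and not the spread between mice.

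Retn showed a like pattern against Adipoq. Its ratio was 42.1, 38.1 and 26.4 Retn counts per 100 Adipoq counts in HI, 43.4, 27.9 and 31.0 in HC, 13.1, 14.5 and 18.6 in MI, and 5.93, 7.25 and 22.2 in MC. Every chamber tumour was above every ambient tumour, with a mean difference of 1.44 on the log2 scale. The lowest chamber ratio, in HI3, came from 14 Retn and 53 Adipoq counts. The highest ambient ratio, in MC3, came from 22 Retn and 99 Adipoq counts. Retn had only 8 and 5 counts in MC1 and MC2. Counting error was not taken into account for this separation. Of the 15268 genes set against Adipoq in this way, Retn was the 1 (0.00655%) that stood higher in every chamber tumour, and 4 (0.0262%) stood lower in every one. That share is no chance rate for a fat cell gene. For genes that do not follow fat, the ratio mostly mirrors Adipoq. Adipoq overlapped between chamber (1.32 to 28.2 CPM) and ambient tumours (1.74 to 13.3 CPM), so such genes could hardly separate. The Retn ratio was looked at after the ratios of all members had been seen and was given no test. The droplet gene Plin1 gave no such separation, with 51.2, 54.3 and 37.7 counts per 100 Adipoq counts in HI, 39.8, 61.0 and 42.9 in HC, 51.6, 44.5 and 47.9 in MI, and 71.1, 36.2 and 46.5 in MC, a mean log2 difference of -0.05. For the other genes the difference was 0.66 for Cidec, 0.31 for Fabp4, -0.08 for Cfd, -0.34 for Pparg and -0.70 for both Lpl and Lipe.

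**Figure D3:**
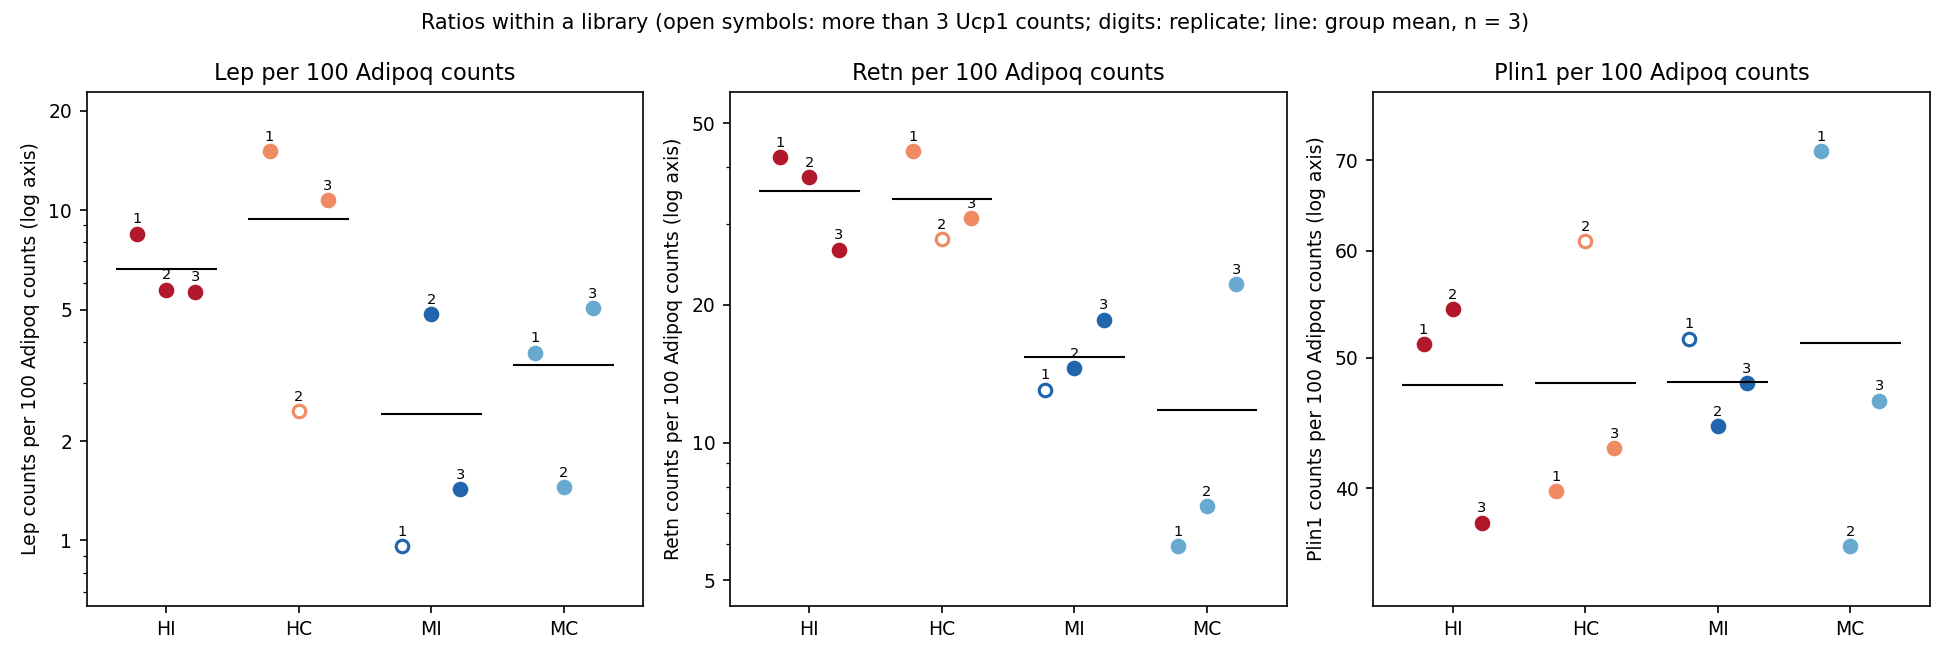
Counts of Lep, Retn and Plin1 per 100 Adipoq counts in each tumour on log axes; points are libraries numbered by replicate, lines are arithmetic group means (n = 3), and open symbols mark the libraries with more than 3 Ucp1 counts, HC2 and MI1. Retn separates HI and HC from MI and MC, Lep does so but for HC2, and Plin1 does not.

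Markers of neighbouring tissues were read in the same libraries. Ucp1, the uncoupling protein of brown fat, had 0, 3 and 0 counts in HI, 0, 141 and 0 in HC, 46, 0 and 0 in MI, and 0, 1 and 0 in MC. Cidea, another brown fat gene, followed it with 96 counts in HC2 and 27 in MI1, against 0 to 19 elsewhere. Cox8b was also highest there, with 88 counts in HC2 and 50 in MI1, but had 37 in HC1 and 33 in HI2. Elovl3, of the same list, went the other way, with 24 counts in HC3, 19 in HI1, 7 in HI2, 1 in HC2 and 0 in MI1. These libraries, HC2 and MI1, had the lowest Lep counts per 100 Adipoq counts of the chamber and of the ambient tumours, and the part of brown fat in that was not tested. Without both libraries, the log2 difference in the ratio was 1.40, with a lowest chamber value of -4.11 and a highest ambient value of -4.18. This is a description with no test, since the choice was made after the data were seen and leaves out the one chamber tumour whose ratio overlapped the ambient range. Of the 12 brown fat genes 8 could be tested, and their sum was 18.7 to 34.1 CPM in HI, 22.4 to 30.2 CPM in HC, 31.2 to 58.3 CPM in MI and 39.2 to 58.2 CPM in MC. HC2 had the highest sum of HC, but MI1 the lowest of MI. Dio2, a deiodinase, made up 11.1 CPM of the sum in HC2 and 14.9 CPM in MI1.

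The 15 skeletal muscle genes, among them Acta1, Ckm and Myh4, summed to 155 to 314 CPM in HI, 148 to 528 CPM in HC, 122 to 724 CPM in MI and 143 to 371 CPM in MC. MI1, the MI tumour with the most fat transcripts, had the highest muscle sum, and HC1 the next. Krt1, a keratin of the epidermis, had 71 counts in HI1, 57 in HC3, 13 in MC1, 1 in HC2 and 0 in the other libraries, and Lor, of the cornified envelope, had 52 in HI1 and 54 in HC3, against 0 to 3 elsewhere. Of 15 skin and hair genes 5 could be tested, and in HC against MC all 5 were higher with a median log2 change of 0.46, no unadjusted p under 0.05 and 0 passing. Krt2 and Krt27 were at 0 in every library. Muscle genes in HC against MC had a median log2 change of 0.24 with 12 of 15 positive and no unadjusted p under 0.05. HC3 and HI3, the chamber tumours low in fat transcripts, were also the lowest of their groups in muscle sums. The part of attached tissue in the comparisons was not tested beyond these values.

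**Figure D4:**
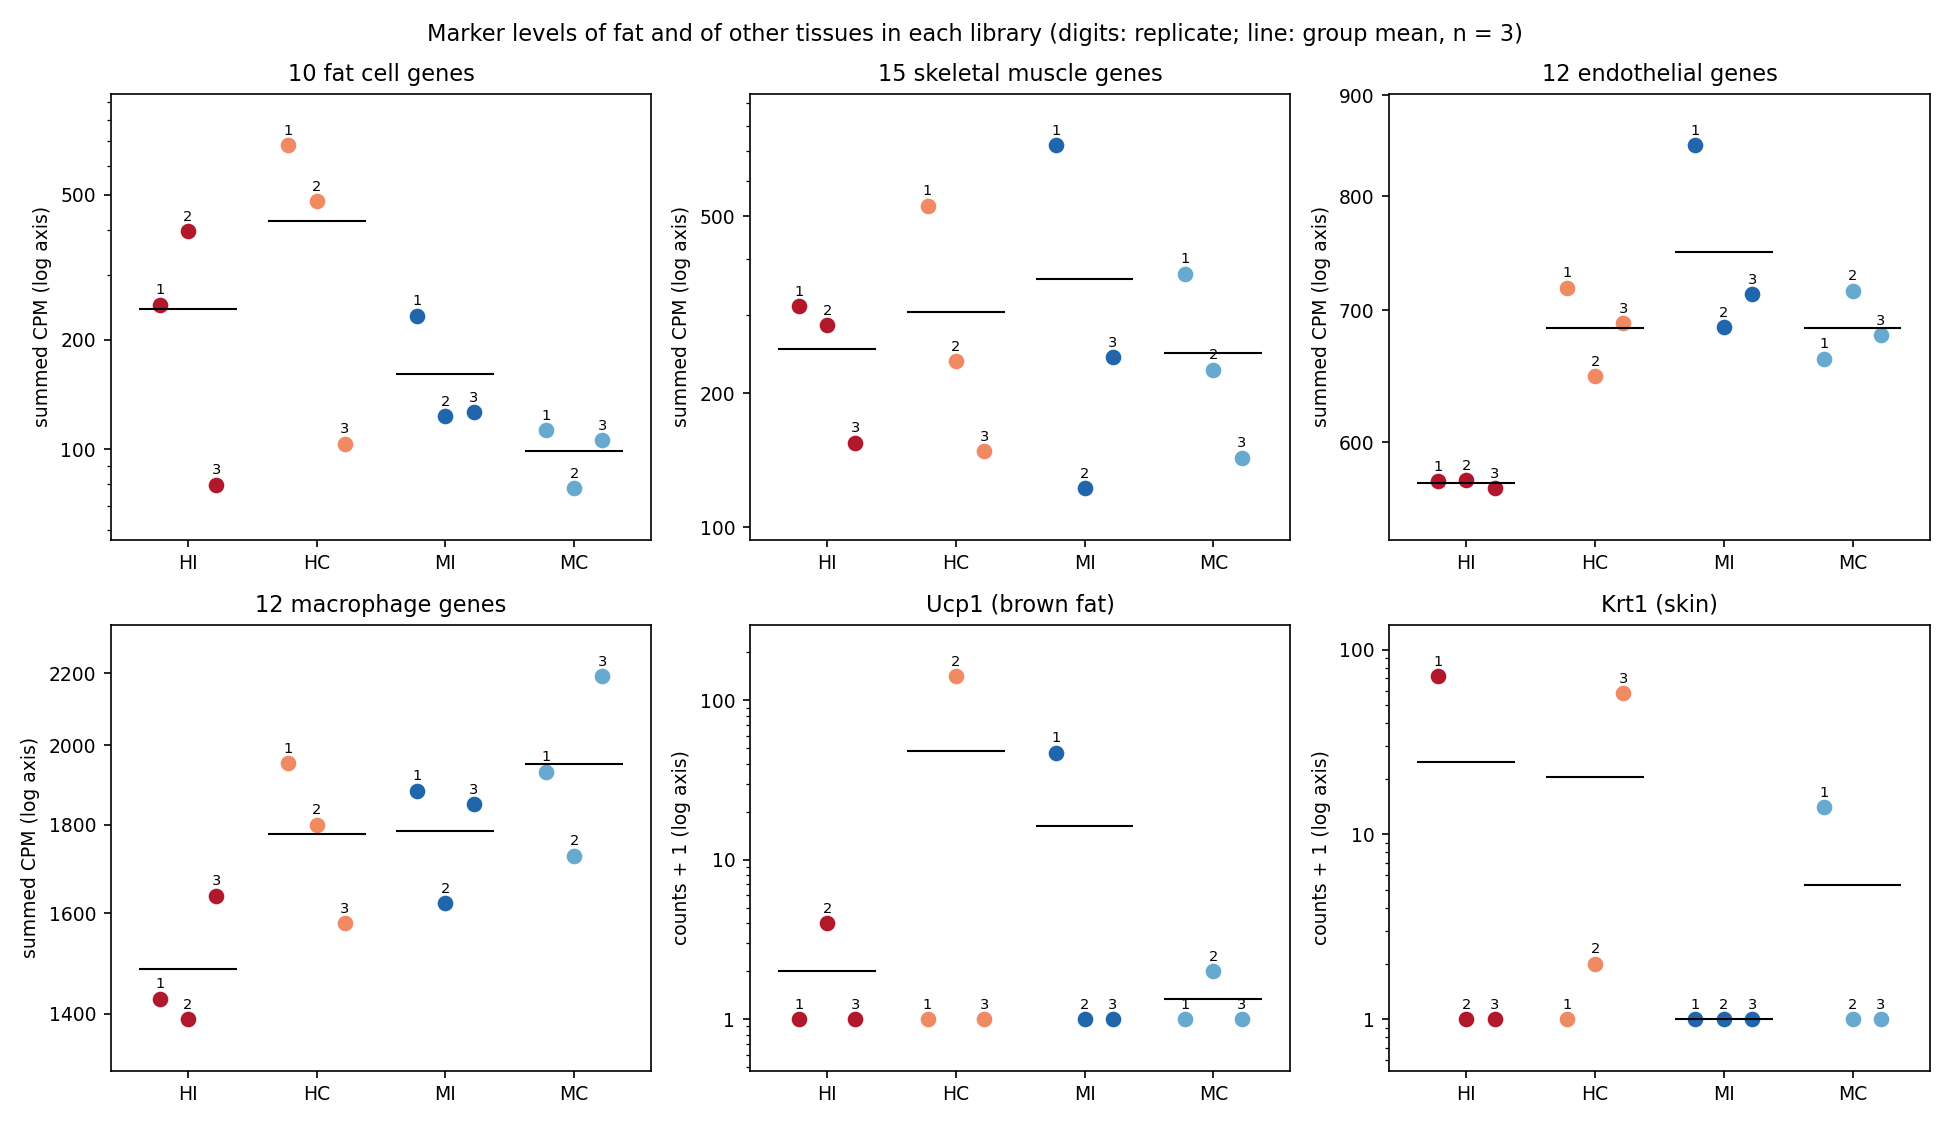
Summed CPM of 4 marker lists and counts plus 1 of Ucp1 and Krt1 in each tumour on log axes; points are libraries numbered by replicate and lines are arithmetic group means (n = 3). The fat panel separates HC1, HC2, HI1 and HI2 from most of the rest, the muscle panel is highest in MI1 and HC1, Ucp1 in HC2 and MI1, and Krt1 in HI1 and HC3.

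Other cells that make some of the 10 genes were set beside them. The 12 endothelial genes, relevant to Fabp4, summed to 569 to 574 CPM in HI, 648 to 719 CPM in HC, 686 to 849 CPM in MI and 661 to 716 CPM in MC. In HI against MI all 12 endothelial log2 changes were negative (median -0.57), 8 had an unadjusted p under 0.05, against 15.2% of all genes, and 0 passed. The 12 macrophage genes, relevant to Fabp4 and Lpl, summed to 1390.3 to 1638 CPM in HI, 1579 to 1953 CPM in HC, 1622 to 1883 CPM in MI and 1727 to 2192 CPM in MC. Averaged over treatment, 9 of 12 macrophage genes were lower at altitude and 3 higher, and 0 passed. An unadjusted p under 0.05 by edgeR was found for 10 of the 12 (7 lower and 3 higher), against 17.3% of all genes. Their part in the Fabp4 and Lpl values was not tested. The 11 neutrophil genes had a median of 0.80 in HC against MC, 8 of 11 higher and 0 passing. The 12 epithelial genes had a median of 0.06 there, with 0 passing.

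Among 28 tested of 29 other fat cell genes, 26 were higher and 2 lower in HC against MC, with a median log2 change of 2.45. Of these, 19 higher and 1 lower had an unadjusted p under 0.05, and 0 passed after adjustment. In HI against MI the median was 0.44 with 22 of 28 higher, and in MI and HI against MC and HC it was 0.07. Nrg4, a growth factor secreted by fat cells, was at 0.313, 0.543 and 0.174 CPM in HI, 1.13, 1.65 and 0.805 CPM in HC, 0.458, 0.170 and 0.0285 CPM in MI, and 0.0252, 0.0505 and 0.0254 CPM in MC. Its log2 change in HC against MC was 5.02 (SE 0.85, adjusted p = 0.156 by edgeR). All MC values of Nrg4 lay under the level of 3 counts, which was 0.0756 to 0.0763 CPM in those libraries. The size of this change therefore rests on very few reads in MC. Cd36, a fatty acid transporter that macrophages and vessels also carry, changed by 2.11 (SE 0.48), and Agpat2, an enzyme of triglyceride synthesis, by 0.19 (SE 0.10). Mest, which marks fat tissue expansion and is also expressed in mesenchymal cells, went the other way at -0.45 (SE 0.17).

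Genes of the pathways in which these fat cell genes work moved less. Of 10 lipolysis genes 9 were higher in HC against MC with a median log2 change of 0.46 and 0 passing. G0s2, an inhibitor of fat cell lipase, changed by 1.38 (SE 0.57), its target Pnpla2, the lipase that takes the first fatty acid from triglyceride, by 0.43 (SE 0.15), Hilpda, a hypoxia-induced droplet protein, by 0.21 (SE 0.28) and Pde3b, the phosphodiesterase through which insulin restrains lipolysis, by -0.16 (SE 0.23). Of 11 fatty acid synthesis genes 3 were higher, with a median of -0.09 and 0 passing. The desaturases went in opposite directions: Scd1, the isoform typical of fat tissue, was at 313, 445 and 52.6 CPM in HI, 676, 315 and 53.0 CPM in HC, 194, 109 and 103 CPM in MI, and 91.1, 63.4 and 84.3 CPM in MC, a change of 2.13 (SE 0.81). Scd2 was at 506, 756 and 689.7 CPM in HI, 441, 552 and 511 CPM in HC, 529.9, 714 and 582 CPM in MI, and 829.96, 915 and 886 CPM in MC, a change of -0.81 (SE 0.15). Of 12 fat progenitor genes, such as Pdgfra, Cd34 and Dlk1, 7 were higher with a median of 0.07 and 0 passing.

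On the receiving side of leptin and adiponectin, 10 genes were tested and 1 was called, Adipor2, a receptor of adiponectin. It was at 191, 173 and 160.2 CPM in HI, 173, 161 and 159 CPM in HC, 112, 141 and 101 CPM in MI, and 137, 123 and 129 CPM in MC. Every chamber tumour exceeded every ambient tumour, and the share of all genes that did so was not counted. Averaged over treatment Adipor2 rose, with a log2 change of 0.45 (SE 0.08, edgeR adjusted p = 0.0436), where 0.498% of all genes were called. The call held without MI2 or without HI3 and was lost when any other library was left out (edgeR adjusted p from 0.0657 without HC2 to 0.132 without MC3, changes of 0.40 to 0.48), and limma-voom gave an adjusted p of 0.0526. Gpihbp1, which anchors lipoprotein lipase on capillaries, changed by -0.64 (SE 0.16, adjusted p = 0.0881), Jak2, the kinase on the leptin receptor, by -0.36 (SE 0.16) and Cdh13, which binds adiponectin on vessels, by -0.23 (SE 0.10). Adipor2 is broadly expressed, including in epithelial cells, and its profile did not follow the 10 genes, being at nearly the same level in HI3 and HC3 as in HC2.

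Hypoxia-inducible transcripts were set beside Lep, whose gene responds to hypoxia in cultured fat cells. Of 15 HIF target genes, 7 were higher and 8 lower in HC against MC, with a median log2 change of -0.01 and no unadjusted p under 0.05. In HI against MI 12 of 15 were higher with a median of 0.48, 8 had an unadjusted p under 0.05, against 15.2% of all genes, and 0 passed. Slc2a1, the glucose transporter, was at 468, 270.5 and 232 CPM in HI, 152, 275 and 294 CPM in HC, 178, 222 and 137 CPM in MI, and 158, 221 and 177 CPM in MC. HC1, the tumour with the most Lep, had the lowest Slc2a1 of HC and HI. These are levels of whole tumours, in which fat cell transcripts are a small share.

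Genes whose profile over the 12 tumours was closest to the mean of the 10 were found by the root mean square difference of log2 CPM, each gene centred on its own mean, among 13050 genes. The nearest were Apoc1 (0.269), an apolipoprotein, Scd1 (0.307), Hp (0.319), the haemoglobin carrier haptoglobin, Plin4 (0.404), a lipid droplet protein, and Trarg1 (0.479), which acts in insulin-driven glucose uptake. Ephx2 (0.541), Cdo1 (0.542), Sncg (0.544) and Fmo1 (0.569) were among those that followed. The median over all genes was 1.26. The 10 genes themselves lay at 0.230 (Cfd) to 0.890 (Lipe) from their own mean, with Lep at 0.736 and Retn at 0.834. Apoc1, Plin4 and Sncg were on the list of other fat cell genes, which had been drawn up with earlier results of these tumours known.

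Nearest to Lep alone were Cdo1 (0.686), which degrades cysteine, Slc7a10 (0.706), an amino acid transporter of white fat cells, Apoc1 (0.773), Sult1a1 (0.781) and Aldh3b2 (0.806). Cdo1 was at 7.62, 12.2 and 2.12 CPM in HI, 20.5, 8.21 and 3.79 CPM in HC, 3.89, 1.72 and 2.25 CPM in MI, and 2.52, 0.656 and 1.15 CPM in MC. Slc7a10 was at 0.887, 1.46 and 0.0249 CPM in HI, 3.06, 1.14 and 0.156 CPM in HC, 0.687, 0.291 and 0.0855 CPM in MI, and 0.101, 0.0252 and 0.0763 CPM in MC. Both were highest in HC1 and lowest in MC2 or HI3. Libraries share their preparation, and likeness over 12 of them is a description.

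**Figure D5:**
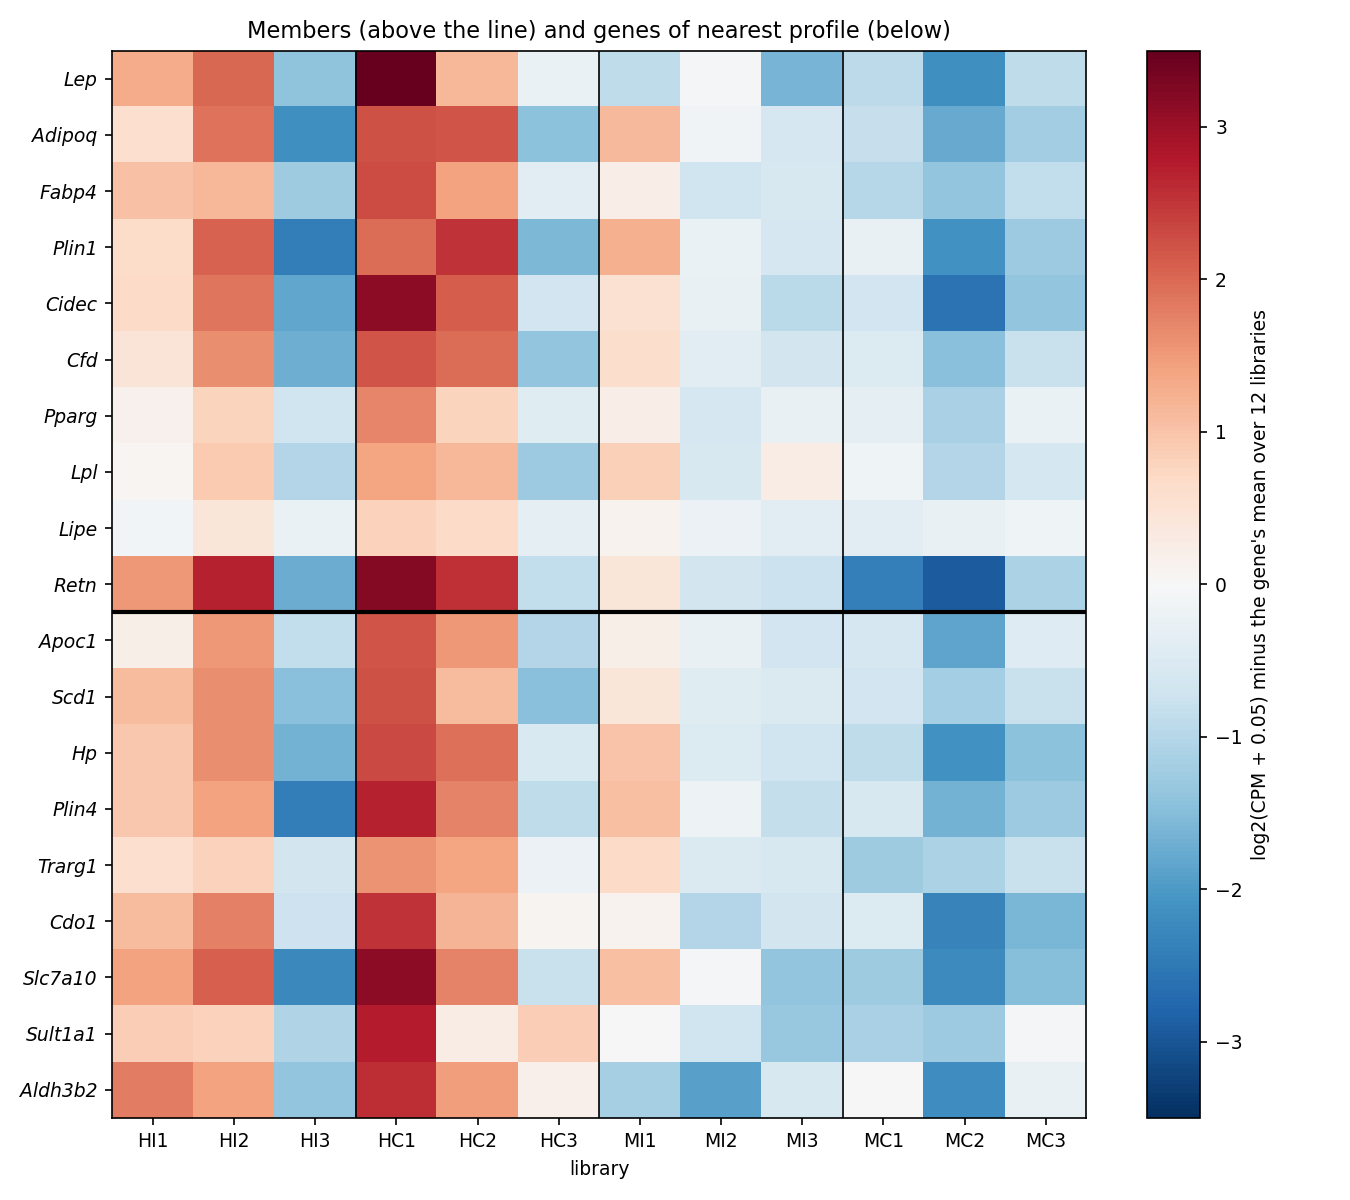
Profile of the 10 genes (above the line) and of the 5 genes nearest to their mean and the 5 nearest to Lep, of which Apoc1 is both (below it), in each library; colour gives log2(CPM + 0.05) minus the gene's mean over 12 libraries. HC1, HC2, HI1 and HI2 are red for most genes, MI1 is red for Adipoq and Plin1 but blue for Lep, and HI3, HC3, MC2 and MC3 are blue for most genes.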

How the data were processed

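RNA from 12 tumours was sequenced as pairs of 150 bases. The deposited gene counts were made by the authors with fastp 0.20.1, HISAT2 2.1.0 and HTSeq 0.11.2 on GRCm39, per the submitters' processing notes. Neither the gene annotation nor the use of strand in counting is named by the sources used here. The authors also deposited FPKM values, which divide counts by library total and gene length. FPKM implied whole-number gene lengths, within 0.01 base, for 100% of values above 0.

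Counts were tested with edgeR 4.0.16 (R 4.3.3): TMM factors, filterByExpr, 1 mean per group in 1 quasi-likelihood fit of 12 libraries, 7 contrasts and Benjamini-Hochberg adjustment over 15269 genes. The script recovered known changes in counts simulated with a low spread. Recovery was required only there, so this does not give the power of the test at the spread of these tumours. DESeq2 1.42.0, limma 3.58.1 (voom, and log2 FPKM with 0.1 or 1 added), other filters and leaving out each library were alternatives. Ratios used log2 of counts with 0.5 added and an exact permutation test. Each library is a different mouse, per the labels.

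The groups share replicate numbers. Deviations of same-numbered libraries correlated at 0.278, 0.153 and 0.209 between HC and MC, and for every other pair of groups at least 1 correlation was under 0.1. The rule for pairing was therefore met only between HC and MC. The fit with the replicate number as a block still applied it to all 12 libraries, including the groups that did not meet the rule.

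The 10 genes, the 13 other gene lists and the tests were chosen with earlier results of these data known. Named genes are the members, up to 4 genes per other list with the smallest p for altitude averaged over treatment, and the nearest profiles (10 to the members' mean, 5 to Lep, among genes of at least 0.5 CPM on average, predicted genes left out); 1 of these nearest genes is not reported here. Other genes named only as markers of a tissue were picked for their counts.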

Additional observations from a re-analysis of the deposited data

Results flagged for a closer look

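For 44 sets of 6 libraries (all levels of the 10 genes and their sum in pairs of groups that share an altitude or a treatment), the gap of the highest or lowest library to its neighbour was divided by the range of the set and compared with Dixon's 95% value of 0.625. That value flags about 1 in 20 sets of independent values from a single normal distribution. The sets here join pairs of groups and share libraries, so this rate does not carry over to them.

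Lep in HC1 stood apart from the other 5 chamber tumours, at 4.25 CPM with the next at 1.28 CPM (gap over range 0.711), and from the other 5 vehicle tumours, where the next was 0.685 CPM (0.844).

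MI1 stood apart from the other 5 ambient tumours for 4 genes. Adipoq was at 13.3 CPM with the next at 5.51 CPM (gap over range 0.673), and Plin1 at 6.84 CPM with the next at 2.45 CPM (0.707). Cfd was at 49.2 CPM with the next at 25.1 CPM (0.644), and Fabp4 at 64.6 CPM with the next at 37.3 CPM (0.627). MI1 also had 46 Ucp1 counts and the highest muscle sum, 724 CPM, and its Lep level, 0.127 CPM, was not among those that stood apart. The part of these tissues in the fat cell transcripts of MI1 was not tested.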

How the results depend on the processing

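The 70 log2 changes of the 10 genes were recomputed under 21 alternatives, giving 1463 values: 1410 kept direction and side of the threshold, 12 passed it where the main value had not, and 41 changed sign, none of them past the threshold. In HC against MC and in altitude averaged over treatment every gene kept its positive sign in all of them. Members called were 4 in each of these comparisons by DESeq2, 1 in altitude averaged over treatment with no filter, and 0 to 3 there on leaving out each library.

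Signs that turned outside the left-out libraries were Adipoq in HI against MI (-0.0654 by voom, -0.00808 on log2 FPKM with 0.1 added), Plin1 there (-0.0822 by voom) and Cidec in the IOX2 average (0.0493 by voom). Without both HC2 and MI1, an alternative added after seeing the data, Lpl in HI against MI was 0.26 and Lipe in MI against MC -0.0342. On leaving out each library, HI against MI ranged from -0.57 to 1.18 for Adipoq, -0.56 to 1.38 for Plin1, -0.23 to 1.18 for Cfd, -0.057 to 0.67 for Pparg, -0.68 to 0.26 for Lpl and -0.018 to 0.34 for Lipe. MI against MC ranged from -0.0341 to 0.22 for Lipe, and HI against HC from -2.04 to 0.61 for Lep. The IOX2 average ranged from -0.67 to 0.66 for Lep, -0.18 to 0.63 for Adipoq, -0.24 to 0.32 for Fabp4, -0.27 to 0.66 for Plin1, -0.53 to 0.41 for Cidec, -0.50 to 0.21 for Cfd, -0.41 to 0.12 for Pparg and -0.18 to 0.31 for Lpl.

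Counts over all genes moved more. HC against MC (0) gave 314 by DESeq2, 2 with no filter and 0 to 40 on leaving out each library. HI against MI (0) gave 1 with DESeq2 size factors, 381 by DESeq2, 16 with no filter, 2 with the filter of 1 CPM in 3 libraries and 0 to 520 (without MI2). MI against MC (4) gave 20 by DESeq2, 0 by voom, 0 without HC2 and MI1, and 0 to 6. HI against HC (0) gave 22 by DESeq2. Altitude averaged over treatment (76) gave 866 by DESeq2, 20 by voom, 14 on log2 FPKM with 1 added, 166 with no filter, 0 without HC2 and MI1, and from 2 (without MC2 or MC3) to 339 (without HI3). The IOX2 average (6) gave 11 by DESeq2, 0 without HC2 and MI1, and 4 to 6, and the interaction (0) gave 32 by DESeq2 and 0 to 2. The cause of these shifts was not tested.

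With the replicate block the calls over all genes were 13 in HC against MC, 3 in HI against HC and 155 in altitude averaged over treatment, and 0 of the 10 members passed in any comparison. Only HC and MC met the rule for pairing.

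The difference in the log2 ratio of Lep to Adipoq (1.37) was 1.24 with 1 count added (p = 0.0433, exact permutation), 1.42 against Plin1, 1.06 against Fabp4 (p = 0.0584, exact permutation), and 1.09 to 1.68 on leaving out each library (exact permutation p from 0.00866 to 0.0606). Permuted within treatment, its exact p was 0.04. Lep had 1 to 11 counts in the ambient tumours, which limits this ratio and its fold change.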
